A study of Homo sapiens with 12 samples.

Results

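Transcript levels of 10 genes are described, 7 matrix metalloproteases (MMP1, MMP2, MMP7, MMP9, MMP10, MMP13 and MMP14) and 3 tissue inhibitors of metalloproteases (TIMP1, TIMP2 and TIMP3), out of 20375 genes listed in each library. The genes were picked by name, and the family was selected on a measured value, the difference of MMP9 between platelet-rich plasma and plain plasma. Values of the members in that contrast are therefore given as a description with no test. All 12 libraries came from PE/CA-PJ41, a human oral squamous cell carcinoma line, and each was made from polyadenylated RNA. The groups were cells given platelet-rich plasma (PRP, plasma enriched in platelets) at 10% for 48 h, cells given human plasma at 10% for 48 h, and control cells, with 4 libraries each. The labels give no agent and no culture time for the control cells and do not say whether the 4 libraries of a group were separate cultures, and each p-value below reflects library-to-library variation alone, part or all of which may be technical.

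Matrix metalloproteases are zinc-dependent enzymes that are made as inactive precursors and, once cleaved, cut collagens, laminins and other proteins of the extracellular matrix as well as growth factors and receptors at the cell surface. The tissue inhibitors bind the active site and block it. In squamous carcinomas of the mouth, the family is known for its part in the breakdown of the basement membrane and of the collagen beneath it.

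Levels are in TPM, a relative abundance that is corrected for transcript length, so they can be compared between genes. Estimated reads per library ran from 36258955 to 41976136. Of 8 squamous epithelial marker genes, all 8 were expressed, with a summed level of 14170 to 15740 TPM with PRP, 14140 to 15450 TPM with plasma and 11510 to 12940 TPM in control. These genes did not move together. KRT5 had 7275 to 8295, 7334 to 8164 and 4531 to 5055 TPM in the same order, and KRT14 was also higher in treated cells. KRT17 was lower, at 1616 to 1683, 1749 to 1823 and 2565 to 2947 TPM. KRT6A, TP63, EPCAM, CDH1 and SFN overlapped with control. The libraries numbered 1 stood apart from those numbered 3 and 4 of the same group. The chi-square per gene between their reads was 29.2 to 32.7 in control, against 3.84 between control replicates 3 and 4. Control replicate 2 was also apart from replicates 3 and 4 (16.9 or more) and nearer to replicate 1 (7.44). Leaving out the 3 libraries numbered 1 therefore does not remove this split in control. Calls of named genes that changed without those 3 libraries are given with and without them, except for FOS, FOSB, FOSL2, JUNB and JUND.

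Against control cells, MMP9, MMP2, TIMP1 and TIMP3 rose and MMP10, MMP13 and TIMP2 fell with PRP. With plasma MMP9, MMP2, TIMP1, TIMP3 and MMP7 rose, and MMP10, MMP13 and TIMP2 fell. Thus 4 of the 10 members rose and 3 fell with PRP, while 5 rose and 3 fell with plasma. The test was limma on log2(TPM + 1) over 12517 genes with Benjamini-Hochberg adjustment at 0.05. It called 53.1% of all genes tested with PRP (21.7% higher and 31.5% lower) and 49.3% with plasma (20.3% higher and 29% lower). In bulk RNA, fewer cells expressing a gene and less RNA per cell cannot be told apart. The share of members called has to be read against that high background. The median change of the members was 0.13 with PRP and 0.31 with plasma, beside -0.06 and -0.05 over all genes tested. The 2 comparisons share the control libraries, so their likeness is not independent. All 10 members passed the filter of 1 TPM in 4 libraries, but MMP9 and TIMP3 did so through treated libraries only, since 0 of 4 control libraries reached 1 TPM for either gene. The filter therefore favoured their higher level in treated cells, and both are among the members counted as rising.

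**Figure D1:**
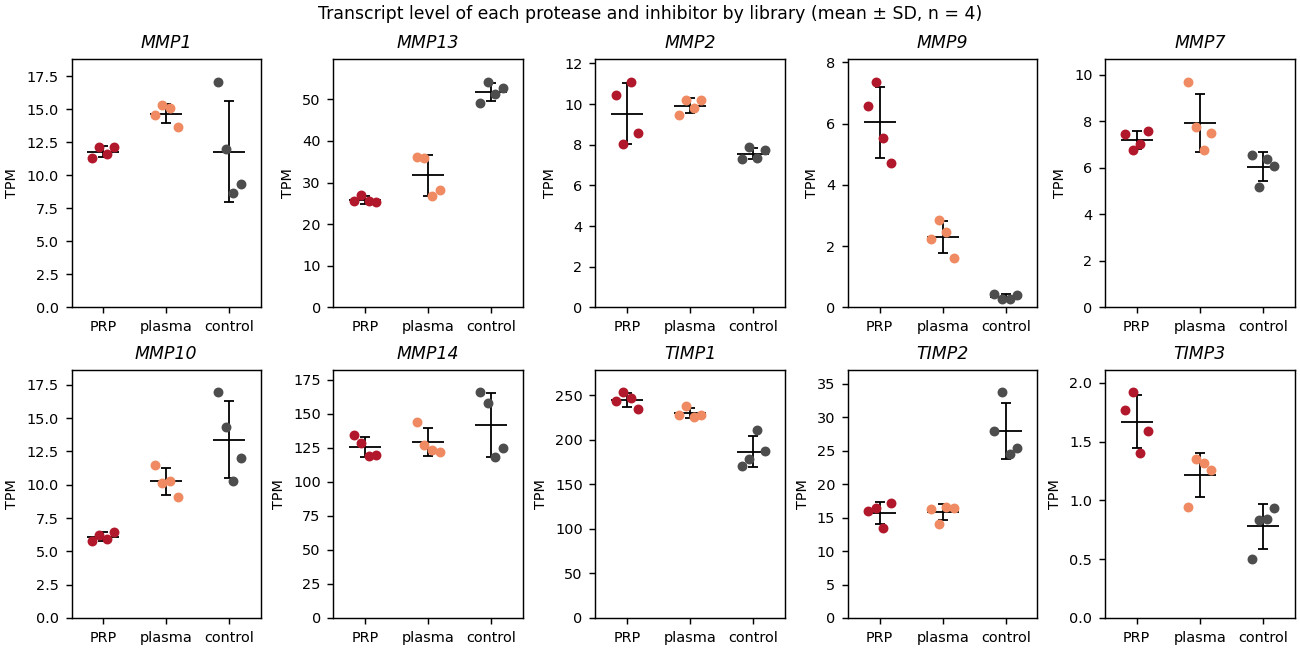
Each panel shows the TPM of 1 gene in the 4 libraries of PRP, plasma and control cells (points), with the mean and SD of the group (bars); each vertical axis starts at 0. MMP9 lies at 4.72 to 7.37 TPM with PRP, 1.60 to 2.86 TPM with plasma and 0.285 to 0.427 TPM in control, with no overlap between the groups.

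**Figure D2:**
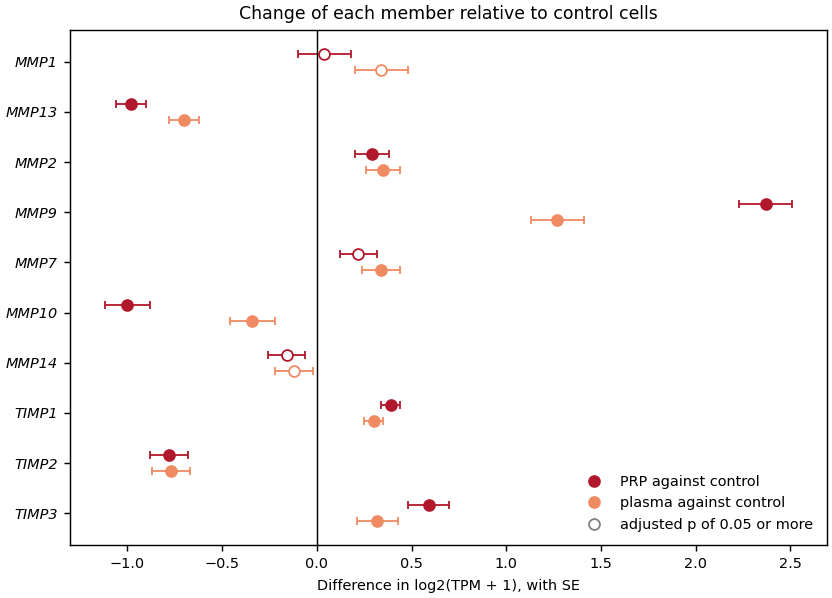
Points give the difference of each member from control in log2(TPM + 1), with its SE, for PRP and for plasma; open points did not pass the adjusted threshold. MMP9 has the longest shift to the right, at 2.37 with PRP and 1.27 with plasma, and MMP10 and MMP13 lie at -1.0 and -0.98 with PRP.

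The gelatinases were taken first. MMP9 (chromosome 20, 46008908 to 46016561, GRCh38), gelatinase B, cuts denatured collagen and type IV collagen of basement membranes. Its level was 6.57, 7.37, 5.52 and 4.72 TPM with PRP, 2.24, 2.86, 2.46 and 1.60 TPM with plasma, and 0.427, 0.287, 0.285 and 0.393 TPM in control. Every PRP library was above every plasma library, and every plasma library was above every control library. The reads behind these levels numbered 278 to 415 with PRP, 93 to 144 with plasma and 15 to 23 in control. The mean of 6.04 ± 1.17 TPM with PRP was 17.4 times the control mean of 0.348 ± 0.0727 TPM (SD, n = 4 each), a difference of 2.37 ± 0.14 in log2(TPM + 1) (SE, adjusted p = 1.5e-08). With plasma the mean of 2.29 ± 0.531 TPM was 6.59 times that of control (1.27 ± 0.14, adjusted p = 4.71e-06). The pseudocount of 1 TPM compresses these differences, and from reads the log2 changes were 4.15 ± 0.30 with PRP and 2.73 ± 0.32 with plasma. These tests use the same PRP and plasma libraries as the value on which the family was selected, and so are not independent of it. MMP9 also passed the filter through treated libraries only, which favoured a rise.

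MMP9 is also a product of neutrophils and other leukocytes, which plasma products may carry, so markers of blood cells were measured in the same libraries. Of 8 neutrophil genes, 3 (MPO, ELANE and CSF3R) had 0 reads in every library. MMP8, the neutrophil collagenase, had at most 4 reads with PRP, 2 with plasma and 0 in control. The summed neutrophil level was 2.27 to 2.80 TPM with PRP, 2.33 to 2.53 TPM with plasma and 0.705 to 2.28 TPM in control, nearly all of it from the chemokine receptor CXCR2 at 138 to 186, 131 to 177 and 40 to 87 reads in the same order. The pan-leukocyte gene PTPRC had 2 to 7 reads with PRP, 2 to 9 with plasma and 25 to 35 in control, and CD53 had 0 reads throughout. CORO1A, the one gene of the 4 pan-leukocyte genes to reach 1 TPM in 4 libraries, went the other way, with 3.95 to 5.39 TPM with PRP, 4.75 to 6.17 TPM with plasma and 3.10 to 4.32 TPM in control. LCP1 had 0.415 to 0.793 TPM with PRP, 0.615 to 1.42 TPM with plasma and 0.503 to 1.18 TPM in control. The sum of those 4 genes was 4.49 to 6.20 TPM with PRP, 5.87 to 7.08 TPM with plasma and 4.19 to 6.003 TPM in control. Among 8 monocyte and macrophage genes, FCGR1A and AIF1 had 0 reads in every library, and the sum was 73.1 to 85.3 TPM with PRP, 73.8 to 90.4 TPM with plasma and 41.8 to 52.8 TPM in control, mostly from CD68, a lysosomal protein. CD14, a monocyte surface receptor, had 137 to 220 reads with PRP, 153 to 184 with plasma and 38 to 88 in control. ITGAM went the other way, with overlap, at 64 to 101 reads with PRP, 75 to 114 with plasma and 96 to 131 in control. LYZ was alike in the groups, at 28 to 44, 29 to 45 and 26 to 38 reads in the same order. CSF1R and CD163 had at most 3 and 2 reads in any library. Of 8 platelet genes, PF4, GP9 and TREML1 had 0 reads in every library. GP1BB had 0 to 18 reads with PRP, 0 to 14 with plasma and 0 in control. PPBP and GP1BA had at most 3 and 2 reads with PRP, 0 and 1 with plasma, and 0 in control. ITGA2B went the other way, with 23 to 27 reads with PRP, 22 to 45 with plasma and 30 to 49 in control, and TUBB1 had at most 5 reads. The sum of the 8 platelet genes was 0.424 to 1.28 TPM with PRP, 0.353 to 1.36 TPM with plasma and 0.488 to 0.718 TPM in control. Lymphocyte genes summed to 0.652 to 1.24 TPM with PRP, 0.299 to 0.621 TPM with plasma and 0.519 to 0.973 TPM in control, and 3 of 8 had 0 reads in every library. The part of blood cell RNA in the MMP9 level was not tested beyond these measurements.

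MMP2 (chromosome 16, 55389700 to 55506691, GRCh38), gelatinase A, has similar substrates and is activated at the cell surface by MMP14. It had 10.5, 8.02, 11.1 and 8.55 TPM with PRP, 9.45, 10.2, 9.79 and 10.2 TPM with plasma, and 7.29, 7.88, 7.37 and 7.72 TPM in control. The treated groups did not overlap with control, and overlapped with each other. The change was 0.29 ± 0.09 with PRP (adjusted p = 0.0126) and 0.35 ± 0.09 with plasma (adjusted p = 0.00445). Its estimated effective length ran from 2187 to 3252 bases among the PRP libraries, the widest range of any member within a group. Reads, which do not depend on that length, lay closer together, at 665 to 717 with PRP, 619 to 767 with plasma and 540 to 591 in control. The PRP call was lost without the 3 libraries numbered 1 (0.23, adjusted p = 0.089).

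The collagenases went separate ways. MMP13 (chromosome 11, 102942995 to 102955734, GRCh38), collagenase 3, cuts fibrillar collagens and was the second most abundant protease of the set. It had 25.4, 27.1, 25.4 and 25.2 TPM with PRP, 36.03, 35.9, 26.7 and 28.1 TPM with plasma, and 49.2, 54.2, 51.2 and 52.6 TPM in control. All treated libraries lay below all control libraries, and the plasma libraries fell into a higher and a lower pair. MMP13 fell by 0.98 ± 0.08 with PRP (adjusted p = 5.11e-07) and by 0.70 ± 0.08 with plasma (adjusted p = 1.32e-05), to 0.498 and 0.612 of the control mean.

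MMP1 (chromosome 11, 102789920 to 102798160, GRCh38), interstitial collagenase, had 11.3, 12.1, 11.6 and 12.1 TPM with PRP, 14.5, 15.3, 15.1 and 13.7 TPM with plasma, and 17.1, 12.0, 8.68 and 9.36 TPM in control. The control libraries spanned the treated ones. Neither difference passed the test, at 0.04 ± 0.14 with PRP (adjusted p = 0.814) and 0.34 ± 0.14 with plasma (adjusted p = 0.0677). Control replicate 1 decided the outcome with plasma, since without it the difference was 0.52 (adjusted p = 0.000466), and without all 3 libraries numbered 1 it was 0.52 (adjusted p = 0.0018). From reads it passed too (0.43 ± 0.14, adjusted p = 0.0164).

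The stromelysin MMP10 and the matrilysin MMP7, which cut a broad range of non-fibrillar matrix proteins, were then examined. MMP10 (chromosome 11, 102770503 to 102780628, GRCh38), stromelysin 2, had 5.77, 6.25, 5.94 and 6.48 TPM with PRP, 11.5, 10.2, 10.3 and 9.09 TPM with plasma, and 17.0, 14.3, 10.3 and 12.0 TPM in control. PRP libraries were below all others, while plasma and control overlapped. MMP10 fell by 1.0 ± 0.12 with PRP (adjusted p = 9.34e-06), to 0.456 of the control mean. With plasma it fell by 0.34 ± 0.12 (adjusted p = 0.0285), a call that was lost without control replicate 1 (adjusted p = 0.0885), control replicate 2 (0.076), plasma replicate 2 (0.0545), plasma replicate 3 (0.0528) or plasma replicate 4 (0.083), and without the 3 libraries numbered 1 (0.054).

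MMP7 (chromosome 11, 102520508 to 102530753, GRCh38), matrilysin, is the small epithelial member that lacks the hemopexin domain. It had 7.44, 6.75, 7.03 and 7.59 TPM with PRP, 9.71, 7.78, 6.78 and 7.49 TPM with plasma, and 6.56, 5.19, 6.396 and 6.06 TPM in control. Neither treated group overlapped with control. MMP7 rose by 0.34 ± 0.10 with plasma (adjusted p = 0.0107), and the difference of 0.22 ± 0.10 with PRP missed the threshold (adjusted p = 0.0689). That PRP difference passed without plasma replicate 1 (adjusted p = 0.0325), a library that enters only through the shared estimate of spread, and from reads (adjusted p = 0.0349). Whether the 2 treatments differ for MMP7 was not tested.

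The sequences before the start sites of MMP10 and MMP7 are shown because these genes of 1 cluster, with MMP20, MMP27 and MMP8 between them, were called in opposite directions with plasma, a call of MMP10 that was lost in 8 of 22 alternatives. They are the 250 bases before each start site on the minus strand, from RefSeq on GRCh38.p14, at chr11:102780629-102780878 for MMP10 and chr11:102530748-102530997 for MMP7, with capitals for matches to TGANTCA, the AP-1 core with any base in the middle, searched on both strands, where it reads alike. AP-1 is a factor known to act on metalloprotease promoters. Among its subunits, FOSL1 and JUN (values given with the transcription factors), FOSB and JUND fell with both treatments. The plasma call of JUND lay at the threshold (-0.26 ± 0.10, adjusted p = 0.05 as rounded). How the calls of FOSB, JUND and FOSL2 hold under the alternatives is not given here. FOSL2 fell with PRP only, and FOS and JUNB were called with neither. Whether AP-1 acts on MMP10 or MMP7 in these cells was not tested.
MMP10: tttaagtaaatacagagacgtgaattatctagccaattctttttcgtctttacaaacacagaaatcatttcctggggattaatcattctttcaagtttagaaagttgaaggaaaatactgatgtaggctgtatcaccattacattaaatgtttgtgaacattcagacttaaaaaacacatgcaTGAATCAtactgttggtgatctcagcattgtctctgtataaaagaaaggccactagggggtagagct
MMP7: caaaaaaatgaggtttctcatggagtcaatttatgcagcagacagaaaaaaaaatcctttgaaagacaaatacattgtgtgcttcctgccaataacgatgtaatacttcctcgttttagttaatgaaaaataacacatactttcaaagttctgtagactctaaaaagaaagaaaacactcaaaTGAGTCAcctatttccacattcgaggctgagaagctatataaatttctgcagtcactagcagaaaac

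In both genes the match begins 67 bases before the start site, and it reads TGAATCA in MMP10 and TGAGTCA in MMP7. Promoters of 5 of the 10 members were matched by symbol (MMP7, MMP10, MMP14, TIMP1 and TIMP3), and these 2 held the letters. Over all 35116 promoters of that length, 6.57% did. A match of letters is a description and not evidence of binding, and the lack of one in MMP14, TIMP1 and TIMP3 says only that these letters are not in this window.

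MMP10, MMP7, MMP1 and MMP13 lie with 5 further metalloprotease genes, all on the minus strand, in a cluster of 435 kb on chromosome 11 (102520508 to 102955734, GRCh38). Of the 9 genes, 6 were expressed above the filter. MMP12, macrophage elastase, averaged 15.0 ± 0.718 TPM with PRP, 20.1 ± 0.741 TPM with plasma and 12.7 ± 2.56 TPM in control, and MMP3, stromelysin 1, averaged 1.16 ± 0.323, 1.57 ± 0.399 and 2.35 ± 0.422 TPM in the same order. MMP8 and MMP20 had at most 5 reads in any library, and MMP27 had 0. Genes of the cluster did not share a direction, as MMP13 and MMP10 fell with both treatments while MMP7 and MMP12 rose with plasma.

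**Figure D3:**
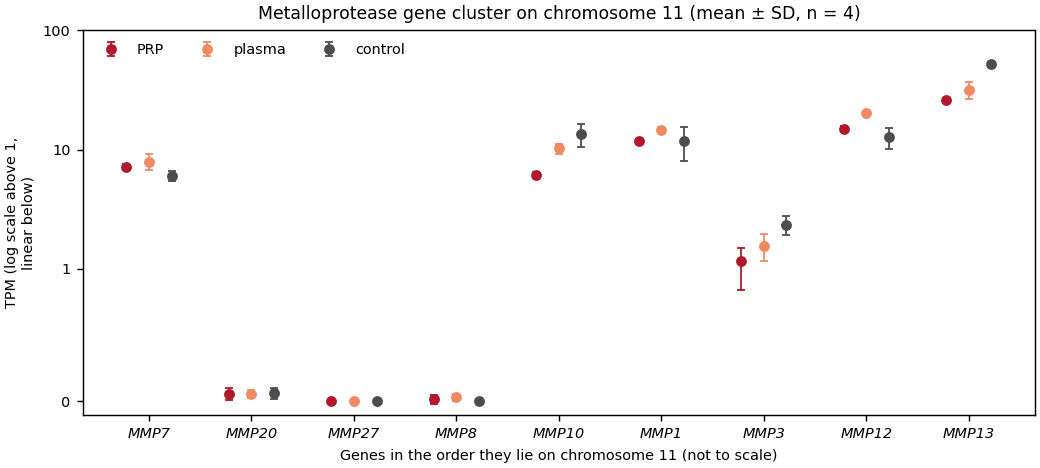
Points show the mean TPM and SD (n = 4 libraries) of the 9 metalloprotease genes of the chromosome 11 cluster, in their order along the chromosome, for PRP, plasma and control; the axis is logarithmic above 1 TPM and linear below it. MMP13 and MMP10 lie highest in control, MMP12 lies highest with plasma, and MMP20, MMP27 and MMP8 lie near 0.

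MMP14 (chromosome 14, 22836557 to 22849027, GRCh38), the membrane-anchored protease also called MT1-MMP, activates MMP2 and cuts collagen at the cell edge. It was the most abundant protease, with 134, 128, 119 and 119.6 TPM with PRP, 144, 127, 124 and 122 TPM with plasma, and 166, 158, 118 and 125 TPM in control. The range of the control libraries held all treated ones. Neither difference passed the test, at -0.16 ± 0.10 with PRP (adjusted p = 0.169) and -0.12 ± 0.10 with plasma (adjusted p = 0.309). Without control replicate 3 the PRP difference passed (-0.24, adjusted p = 0.0335).

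Among the inhibitors, TIMP1 rose, TIMP2 fell and TIMP3, at a low level, rose. TIMP1 (chromosome X, 47582313 to 47586789, GRCh38), a secreted inhibitor that also binds the MMP9 precursor, was the most abundant member of the set. It had 243, 254, 247 and 235 TPM with PRP, 228, 238, 226 and 228 TPM with plasma, and 171, 178, 211 and 188 TPM in control. Neither treated group overlapped with control. The rise was 0.39 ± 0.05 with PRP (adjusted p = 3.18e-05) and 0.30 ± 0.05 with plasma (adjusted p = 0.000333), or 1.31 and 1.23 times the control mean.

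TIMP2 (chromosome 17, 78852977 to 78925387, GRCh38) blocks MMP2 and is also needed, with MMP14, for its activation. It had 15.98, 16.4, 13.4 and 17.2 TPM with PRP, 16.3, 14.1, 16.5 and 16.4 TPM with plasma, and 28.0, 33.8, 24.5 and 25.5 TPM in control. Every treated library lay below every control library, and the treated groups overlapped. TIMP2 fell by 0.78 ± 0.10 with PRP (adjusted p = 1.49e-05) and by 0.77 ± 0.10 with plasma (adjusted p = 2.09e-05), to 0.564 and 0.567 of the control mean.

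TIMP3 (chromosome 22, 32801701 to 32863043, GRCh38), which is held in the matrix and also blocks ADAM proteases, had 1.77, 1.92, 1.40 and 1.59 TPM with PRP, 0.941, 1.35, 1.32 and 1.26 TPM with plasma, and 0.504, 0.832, 0.844 and 0.937 TPM in control. The 3 groups did not overlap, though the lowest plasma library (0.941 TPM) and the highest control library (0.937 TPM) nearly touched. The rise was 0.59 ± 0.11 with PRP (adjusted p = 0.000544) and 0.32 ± 0.11 with plasma (adjusted p = 0.0288). TIMP3 passed the filter through treated libraries only, which favoured a rise. The plasma call was lost without control replicate 1 (adjusted p = 0.0907), plasma replicate 2 (0.0719), plasma replicate 3 (0.0691) or plasma replicate 4 (0.0595), and without the 3 libraries numbered 1 (0.0552). From reads, TIMP3 changed by 1.19 ± 0.19 with PRP and 0.72 ± 0.20 with plasma.

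The sources used here do not give the strand setting of the counting, and 3 members overlap other coding genes. SYN1, antisense to TIMP1, reached at most 0.038 TPM with PRP, 0.0906 TPM with plasma and 0.135 TPM in control. SYN3, antisense to TIMP3, had 22 to 28 reads with PRP, 13 to 21 with plasma and 12 to 36 in control, against 170 to 226, 108 to 161 and 57 to 110 reads of TIMP3. CEP295NL, within TIMP2 on its strand, had at most 4 reads in any library. Noncoding genes that overlap MMP1, MMP2, MMP9, MMP10 and TIMP2 were not analysed here.

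Set in order of mean TPM, the levels began with TIMP1, MMP14, MMP13 and TIMP2 in all 3 groups. MMP9 was the least abundant of the 10 in control, below TIMP3 with no overlap, and the ninth with plasma and PRP. With PRP its range overlapped with those of MMP10 (5.77 to 6.48 TPM) and MMP7 (6.75 to 7.59 TPM). In the plasma libraries TIMP2 and MMP1 overlapped, as did MMP10, MMP2 and MMP7. In control MMP10 and MMP1 overlapped.

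Summed over the 7 proteases, the level was 192 ± 8.14 TPM with PRP, 206 ± 16.3 TPM with plasma and 233 ± 29.6 TPM in control, and over the 3 inhibitors it was 262 ± 7.63, 247 ± 4.33 and 216 ± 15.1 TPM (SD, n = 4 each). Proteases per inhibitor came to 0.710 to 0.771 with PRP, 0.780 to 0.927 with plasma and 0.857 to 1.32 in control. These sums are dominated by a single gene each. MMP14 made up 65.3%, 62.7% and 60.7% of the protease sum in PRP, plasma and control, and TIMP1 made up 93.4%, 93.1% and 86.6% of the inhibitor sum. MMP9 accounted for 3.14%, 1.11% and 0.15% of the protease sum. Without MMP14 the protease sum was 64.7 to 67.6 TPM with PRP, 70.2 to 83.5 TPM with plasma and 84.2 to 97.5 TPM in control. A sum of transcripts says nothing about active enzyme, which also depends on cleavage of the precursor.

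**Figure D4:**
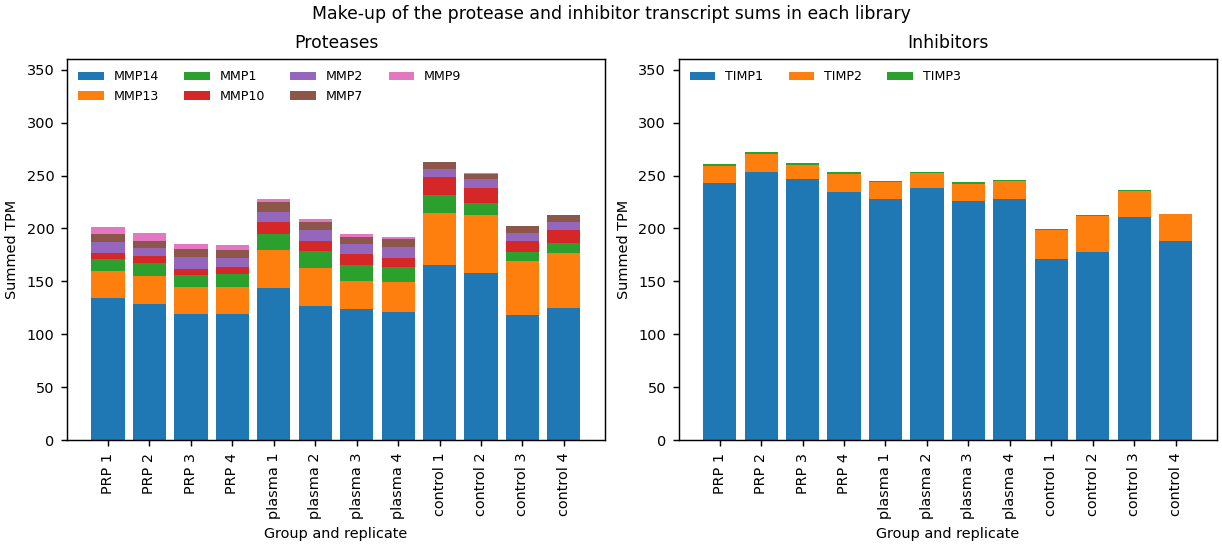
Stacked bars show the TPM of the 7 proteases (left) and the 3 inhibitors (right) in each of the 12 libraries. MMP14 and TIMP1 make up most of each bar; the inhibitor bars reach 253 to 272 TPM with PRP, 243.5 to 253 TPM with plasma and 199.5 to 236 TPM in control.

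PRP was set beside plasma as a description, since this contrast chose the family. Over all genes tested, 0.0639% passed the adjusted threshold in it, and in 5.22% the 4 PRP libraries did not overlap with the 4 plasma libraries. Of the 10 members, 4 did not overlap, MMP9 and TIMP3 being higher and MMP10 and MMP1 lower with PRP. The ratio of the PRP mean to the plasma mean was 2.64 for MMP9, 1.37 for TIMP3, 0.596 for MMP10 and 0.804 for MMP1. The other 6 members had ratios from 0.814 (MMP13) to 1.06 (TIMP1), and their groups overlapped. For MMP10 the plasma mean of 10.25 ± 0.990 TPM lay between the PRP mean of 6.11 ± 0.319 TPM and the control mean of 13.4 ± 2.89 TPM (SD, n = 4 each).

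Genes whose pattern was most like that of MMP9 were sought by Pearson correlation of log2(TPM + 1) over the 12 libraries. The 5 with the largest r were ECM1 (0.984), CENPM (0.975), MARCKSL1 (0.973), GMFB (0.971) and NSMCE4A (0.969). All 5 were highest with PRP and lowest in control, as ECM1, a secreted matrix glycoprotein, with 60.7 ± 7.73 TPM with PRP, 44.3 ± 1.35 TPM with plasma and 28.6 ± 0.977 TPM in control. The 3 groups set most of these correlations, and on deviations from the group means r fell to between 0.276 (GMFB) and 0.661 (CENPM). The choice of genes was not stable, since 1 of the 5 was chosen again after median centring. Among the members, r with MMP9 was 0.902 for TIMP3 and 0.886 for TIMP1, and -0.909 for MMP13 and -0.880 for MMP10.

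The rest of the family was then described from lists of related genes. The counts of this and each list below have to be read against the share of all genes tested. That share was 21.7% higher and 31.5% lower with PRP, and 20.3% higher and 29% lower with plasma. The median change over all genes tested was -0.06 with PRP and -0.05 with plasma. Of 16 other metalloproteases 7 passed the filter, and with PRP 3 rose and 3 fell, while with plasma 4 rose and 3 fell (median change 0.24 with PRP and 0.42 with plasma). MMP15, a membrane-type protease, had 13.8 ± 1.38 TPM with PRP, 13.0 ± 1.07 TPM with plasma and 4.69 ± 0.629 TPM in control (1.38 ± 0.09, adjusted p = 5.79e-08 with PRP, and 1.31 ± 0.09, adjusted p = 1.26e-07 with plasma). MMP28, epilysin, rose to 10.3 ± 0.941 TPM with PRP and 8.42 ± 0.272 TPM with plasma, against 5.34 ± 0.850 TPM in control. MMP11, stromelysin 3, averaged 1.74, 1.61 and 0.965 TPM in PRP, plasma and control and was called higher in both comparisons. Its lowest library had 1.43 TPM with PRP, 1.46 TPM with plasma and 0.847 TPM in control. MMP11 met the filter through its treated libraries, which favoured a rise. MMP12 rose by 0.64 ± 0.10 with plasma (adjusted p = 0.000143), and its PRP difference of 0.24 ± 0.10 missed the threshold (adjusted p = 0.0621), though it passed without control replicate 1 (0.35, adjusted p = 0.00224). Leaving out all 3 libraries numbered 1 gave 0.36 (adjusted p = 0.00619). MMP23B and MMP3 fell with both treatments, MMP23B to 1.35 ± 0.429 and 1.33 ± 0.238 TPM with PRP and plasma, against 3.22 ± 1.09 TPM in control. The plasma call of MMP3 (adjusted p = 0.0336) was lost without the 3 libraries numbered 1 (adjusted p = 0.135) and without any of control replicates 1, 2 or 3 or plasma replicates 1, 3 or 4 (adjusted p from 0.068 to 0.0949). Of 4 other inhibitors 2 passed the filter, and TIMP4 alone was called, at 4.24 ± 0.562 TPM with PRP, 5.21 ± 0.274 TPM with plasma and 4.23 ± 0.274 TPM in control (adjusted p = 0.994 with PRP and 0.0251 with plasma). That plasma call was lost without control replicates 2 or 3 or plasma replicate 2 (adjusted p from 0.0569 to 0.0706) and without the 3 libraries numbered 1 (0.0643).

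Activators and cell-surface partners of the proteases were mostly higher, with 8 of 12 genes up and 2 down in each comparison (median change 0.32 with PRP and 0.31 with plasma). LCN2, lipocalin 2, which binds MMP9 and slows its breakdown, had 87.3 ± 2.94 TPM with PRP, 109.9 ± 19.0 TPM with plasma and 42.1 ± 4.80 TPM in control (1.04 ± 0.10, adjusted p = 1.74e-06 with PRP, and 1.36 ± 0.10, adjusted p = 2.03e-07 with plasma). BSG, or basigin, an inducer of metalloproteases in neighbouring cells, had 929 ± 15.4 TPM with PRP, 922 ± 7.45 TPM with plasma and 669 ± 8.74 TPM in control. ST14, matriptase, was 141 ± 5.52, 141 ± 5.94 and 112 ± 2.79 TPM in the same order. CD44, a hyaluronan receptor that docks MMP9 at the cell surface, fell to 365 ± 24.1 TPM with PRP and 358 ± 28.4 TPM with plasma, against 511 ± 21.5 TPM in control.

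In the ADAM proteases, which shed ligands and receptors from the cell surface, 8 of 11 genes passed the filter, and 3 rose and 0 fell with PRP while 3 rose and 1 fell with plasma. ADAM8 averaged 17.4, 17.1 and 12.1 TPM in PRP, plasma and control, ADAM10 522, 519 and 435 TPM, and ADAM15 85.2, 90.4 and 75.4 TPM, and each was called higher in both comparisons. ADAM19 was the lower one with plasma, at 5.18 ± 0.437 TPM, against 6.17 ± 0.436 TPM in control (adjusted p = 0.0361), a call lost without any of control replicates 1, 2 or 3 or plasma replicates 2, 3 or 4 (adjusted p from 0.0609 to 0.0996) and without the 3 libraries numbered 1 (0.0549). Of 19 ADAMTS proteases 2 passed the filter, ADAMTS6 and ADAMTS13, and both were called lower with both treatments. ADAMTS6 passed the filter through the 4 control libraries only, so its lower level in treated cells was favoured by the filter. ADAMTS6 had 0.474 ± 0.0678 TPM with PRP, 0.492 ± 0.0592 TPM with plasma and 1.096 ± 0.0573 TPM in control. The calls of ADAMTS13 (adjusted p = 0.0294 with PRP and 0.0272 with plasma) were both lost without any of control replicates 1, 2 or 4. The PRP call was also lost without PRP replicates 2, 3 or 4 and the plasma call without plasma replicates 2 or 3, and over all of these the adjusted p ran from 0.0514 to 0.0988. Without the 3 libraries numbered 1, neither ADAMTS gene passed the filter, and 0 of the list were called in either comparison.

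Among 30 matrix substrates 24 were tested, and 4 rose and 9 fell with PRP, while 3 rose and 9 fell with plasma (median change -0.16 with PRP and -0.10 with plasma). The share called was near that of all genes tested, 53.1% with PRP and 49.3% with plasma, so these counts do not set the substrates apart. COL7A1, the collagen of anchoring fibrils beneath squamous epithelium, fell to 13.1 ± 1.88 TPM with PRP and 13.6 ± 1.28 TPM with plasma, against 30.8 ± 2.94 TPM in control (adjusted p = 3.9e-07 and 7.52e-07). The fibrillar collagen genes COL5A1 and COL5A2 fell as well, COL5A2 to 17.3 ± 0.525 and 19.05 ± 0.738 TPM, against 25.6 ± 2.75 TPM. SPARC, a collagen-binding glycoprotein, rose to 272 ± 15.1 TPM with PRP and 299.8 ± 10.2 TPM with plasma, against 183 ± 8.31 TPM in control (adjusted p = 2.3e-07 and 4.59e-08).

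Of 18 transcription factors known to act on metalloprotease promoters 17 were tested, and 2 rose and 9 fell with PRP, while 2 rose and 8 fell with plasma. FOSL1, the AP-1 subunit Fra-1, had 51.8 ± 8.02 TPM with PRP, 48.7 ± 9.99 TPM with plasma and 124 ± 35.9 TPM in control (-1.21 ± 0.19, adjusted p = 0.000126 with PRP, and -1.30 ± 0.19, adjusted p = 7.95e-05 with plasma). JUN, its partner in AP-1, had 28.6 ± 1.74, 30.7 ± 2.22 and 41.1 ± 4.51 TPM in the same order, and ETS2 had 44.9 ± 1.08, 45.7 ± 2.60 and 66.3 ± 2.93 TPM. ELF3, an epithelial factor of the ETS family, rose to 336 ± 8.97 TPM with PRP and 349.7 ± 16 TPM with plasma, against 161 ± 11 TPM in control. Between PRP and plasma, 0 of the 72 tested genes of these lists passed with limma on log2(TPM + 1), where 8 had an unadjusted p under 0.05. With limma voom on estimated reads 0 passed and 15 had an unadjusted p under 0.05, and with the replicate block 0 passed and 18 did. The share of all genes tested with an unadjusted p under 0.05 is not given here for these fits. The unadjusted counts therefore cannot be read as a difference of these lists between PRP and plasma. MMP12 passed when the 8 libraries of that comparison were fitted alone (adjusted p = 0.0165).

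**Figure D5:**
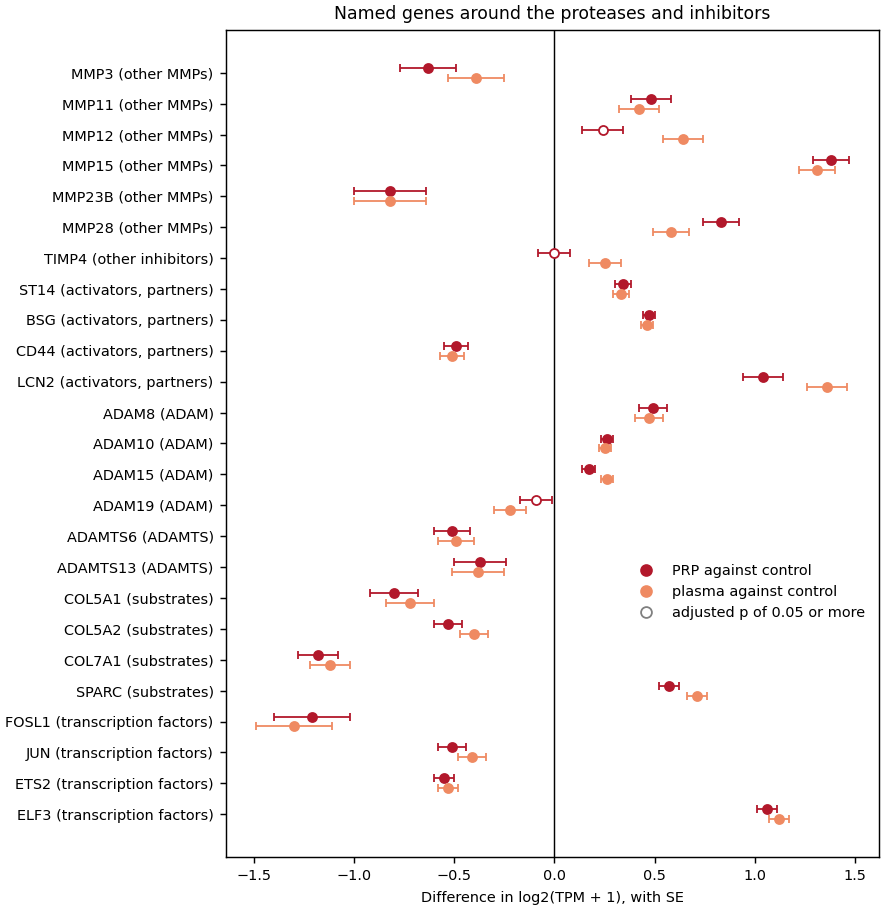
Points give the difference from control in log2(TPM + 1), with its SE, for the named genes of the related lists, with PRP and with plasma; open points did not pass the adjusted threshold. MMP15, LCN2 and ELF3 lie farthest to the right, each past 1 in both comparisons, and FOSL1 and COL7A1 lie farthest to the left, at -1.21 and -1.18 with PRP.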

How the data were processed

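Polyadenylated RNA of 12 libraries was quantified by the authors with Salmon against hg38, per the submitters' processing notes; the version, the transcript set and the strand setting are not given in the sources used here. Each deposited file lists, per the file headers, TPM values and estimated counts (reads per gene, not whole) with decimal commas, which were read as decimal points. Members and gene lists were chosen with earlier results of these data known. Genes reaching 1 TPM in 4 or more libraries were kept (12517 of 20375). log2(TPM + 1) was fitted with limma 3.58.1 (trend) in R 4.3.3, with 1 term per group over all 12 libraries (9 residual degrees of freedom), two-sided, with Benjamini-Hochberg adjustment over all genes tested at 0.05. Values called from reads come from limma voom on the estimated counts with median-of-ratios scaling. The fit was checked on simulated data. Named were all 10 members, up to 4 genes per list with the smallest adjusted p in each comparison with control among those called, and the 5 genes most correlated with MMP9. MMP12, MMP3 and other genes of the chromosome 11 cluster were also named for their place, and further AP-1 subunits were named beside FOSL1 and JUN. Positions are from GENCODE release 29. On deviations from the group means, same-numbered libraries of different groups correlated by -0.067 to 0.304, and libraries with different numbers by -0.22 to 0.203. The main fit did not take numbers to pair samples, and a fit with a replicate block is given below. Whether same-numbered libraries share a batch was not tested. Alternatives changed the pseudocount, filter, scaling, unit, block and libraries used. TPM is relative, so a rise of some transcripts lowers the share of others.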

Additional observations from a re-analysis of the deposited data

Results flagged for a closer look

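In 36 groups of 4 libraries, 2 held a library whose gap to the nearest other, divided by the range of the group, was above Dixon's critical value for 4 libraries, where chance gives about 1 in 20 groups, or 1.8. MMP13 had 27.1 TPM in PRP replicate 2, beside 25.2 to 25.5 TPM in the other PRP libraries. TIMP2 had 14.1 TPM in plasma replicate 2, beside 16.3 to 16.5 TPM in the other plasma libraries.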

How the results depend on the processing

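Over 22 alternatives, 12 of which left out 1 library, no called member value against control changed direction; MMP1 with PRP, not called (0.04), was -0.07 without control replicate 3 and -0.04 without control replicate 4. Of 435 values, 409 kept their side of the threshold, 14 lost the call and 12 gained it. Members called with plasma against control numbered 6 to 9 (8 as reported), and with PRP 5 to 9 (7 as reported). With the replicate block they numbered 8 with plasma and 9 with PRP, MMP7 (adjusted p = 0.0419) and MMP14 (0.034) being added with PRP; each library correlated best with its own number in 3 of 4 pairs of PRP and control and 2 of 4 pairs of plasma and control. The fit of PRP against plasma was used only for the background share, since the family was selected on it, and its count of members is no support for a difference. That count was 1, and it was 0 with a filter of 5 TPM, which leaves MMP9 untested, 0 without the 3 libraries numbered 1, 2 after median centring, 2 when the 8 libraries were fitted alone, and 1 to 2 with 1 library left out; the cause was not tested. Of the 5 genes most like MMP9, 3 were chosen again at a pseudocount of 0.1, 1 after median centring, 1 without the 3 libraries numbered 1, and 2 to 5 with 1 library left out; the cause was not tested. The 15 to 23 control reads of MMP9 limit the precision of its ratios.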
